A study of Homo sapiens with 42 samples.

Results

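The region is the stretch of chromosome 9 around DAPK1 and CTSL, and its members are chromatin loops. A loop belonged to it if it lay on chromosome 9 and either of its anchors started between 87000000 and 88100000 (hg38, counted from 0). This gave 21 of the 33914 loops of the table, of which 19 passed the filter on low counts together with 24132 loops of the genome. The region was chosen by the measured fold changes at 72 h against 0 h, because it holds a loop among the largest falls. The choice names no loop. Loop19445 had the rank 3 and loop19450 the rank 4 among the falls of all tested loops in that comparison. The values of 72 h against 0 h are therefore a description of the region, with no p-value. Loop19445, the larger fall, has no test in any comparison. Loop19450 fell by nearly as much, so its p-values in the other comparisons are not independent of the choice. The authors' deposited fold changes at 72 h hold -1.53 for loop19450 and none for loop19445. A choice made from those values would rest on loop19450.

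All groups were wild-type K562 cells, a human line established from a leukemia. They were kept in medium with serum and collected at 0 h, 6 h or 72 h of treatment with 25 nM PMA, a phorbol ester that drives these cells toward a megakaryocyte-like state. The labels name PMA as the treatment for the 0 h samples too, with a time of 0 min. Contacts were measured by in situ Hi-C, in which DNA ends that lie close together in fixed nuclei are ligated and sequenced as pairs. Each time had 14 samples that made up 4 biological replicates. Replicates 1 and 2 had 3 technical replicates each, and replicates 3 and 4 had 2 technical replicates that were sequenced 2 times. Nothing in the labels says that the replicates came from separate cultures on separate days, so the tests measure the spread between these libraries.

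Many chromatin loops arise where cohesin, a ring-shaped complex, extrudes DNA until it meets CTCF bound at the anchors, and others join enhancers and promoters. DAPK1 encodes a kinase regulated by calcium and calmodulin that promotes cell death and autophagy. CTSL encodes cathepsin L, a cysteine protease of the lysosome. Phorbol esters act on protein kinase C and, through it, on transcription factors such as AP-1.

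DAPK1 spans positions 87497228 to 87708634 on the forward strand of chromosome 9 (GRCh38.p14, a length of 211 kb). CTSL follows it at 87726119 to 87731469, and the pseudogene CTSL3P lies further on at 87772915 to 87786884. Next come the pseudogene LOC100420576 at 87799507 to 87821797 and, within it, the pseudogene ELF2P3 at 87816474 to 87819454. SPATA31E1, a member of a family of genes known from the testis, lies at 87882877 to 87888903, and CDK20, a gene for a cyclin-dependent kinase, at 87966441 to 87974533. The 21 loops used 29 distinct anchors of 10 kb. Of these anchors, 4 lay within the body of DAPK1, 4 held the start or end of a gene that codes for a protein and 3 held a transcription start. 10 anchors served at least 2 loops of the region, so that many members shared an anchor and were not independent of each other. The annotated starts of DAPK1 lay 1.42 and 2.13 kb before an anchor at 87500001 to 87510000. The start of CTSL lay 3.88 kb before an anchor at 87730001 to 87740000, which held the 3′ end of CTSL. The start of SPATA31E1 lay inside the anchor at 87880001 to 87890000.

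Only 1 loop of the region was called as risen at 6 h against 0 h (edgeR adjusted p under 0.05). This loop ran from the CTSL anchor to the SPATA31E1 anchor, and the 250 bases before both gene starts are shown for that reason. They come from RefSeq (GRCh38.p14, forward strand), and capitals mark the letters CCAAT.
CTSL, chr9:87725869-87726118: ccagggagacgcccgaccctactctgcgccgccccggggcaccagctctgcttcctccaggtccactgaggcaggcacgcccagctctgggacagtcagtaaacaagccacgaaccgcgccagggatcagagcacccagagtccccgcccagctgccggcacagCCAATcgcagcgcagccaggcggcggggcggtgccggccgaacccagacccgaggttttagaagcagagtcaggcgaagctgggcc
SPATA31E1, chr9:87882627-87882876: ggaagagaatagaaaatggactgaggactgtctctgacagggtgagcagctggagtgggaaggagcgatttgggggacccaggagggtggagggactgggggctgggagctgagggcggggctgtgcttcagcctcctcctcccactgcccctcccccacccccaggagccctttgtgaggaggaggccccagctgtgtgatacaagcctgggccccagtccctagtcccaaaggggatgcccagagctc
The CTSL window held CCAAT 1 time, with its first base 86 bases before the start (position -86), and this motif was picked after the sequence was seen. The AP-1 motif (TGANTCA) was found in neither window on either strand. The same was true of AGATAA, the letters of a GATA motif. Of 35116 windows of this length in the RefSeq promoter table, 32.0% held CCAAT, 6.57% held TGANTCA and 9.17% held AGATAA. The share of G and C was 69.2% in the CTSL window and 64% in the SPATA31E1 window, against a median of 58% over all windows. These letters are a description of the windows and show nothing about which factors bind there.

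The total of contacts over all loops lay between 849895 and 1472197 in the 0 h libraries, between 736929 and 1090199 in the 6 h libraries and between 988726 and 1181057 in the 72 h libraries. Values below are normalized counts, that is contacts per 1000000 contacts in tested loops after TMM scaling, listed from replicate 1 to 4. At 72 h the counts of replicates 3 and 4 differed by no more than sampling noise over all loops (chi-square per degree of freedom 0.999, p = 0.534). They were counted as 1 sample in means and SDs, and n is 4, 4 and 3 at 0, 6 and 72 h. The same pair was nearly as close at 0 h (chi-square per degree of freedom 1.015, p = 0.0458) and at 6 h (1.016, p = 0.0336). At those times it was kept apart, by a cut at 0.05. The fits behind the SEs and p-values kept replicates 3 and 4 apart at every time. A fit of replicates 3 and 4 alone thus rests on little more than 1 independent sample a time. Its p-values mostly measure counting noise. With those of 72 h summed the region had the same counts of calls. With the pair summed at every time, the calls were 3 at 6 h against 0 h and 8 at 72 h against 6 h. Log2 fold changes are given with their standard error (SE), and p-values are from edgeR's quasi-likelihood test with Benjamini-Hochberg adjustment over all tested loops, with calls at 0.05. A prior count of 2 went into each log2 fold change, which draws those of weak loops toward 0.

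At 6 h against 0 h, 3 of the 19 tested loops changed. Loop19450 and loop19448 fell, both of which end at the anchor that holds ELF2P3, and loop19454 rose. Over the genome 6.41% of the tested loops changed in this comparison, 2.34% upward and 4.07% downward. The median log2 fold change was -0.13 in the region and 0.01 over all tested loops. At 72 h against 6 h, 8 of the 19 loops changed, where 20.5% changed over the genome (10.7% upward and 9.81% downward). Of these, 3 rose (loop19442, loop19446 and loop19458) and 5 fell (loop19444, loop19445, loop19450, loop19451 and loop19453). The counts of 8 and 5 include loop19445 and loop19450, both of which the choice of the region favoured. Of these, loop19445 is not read as tested. Loop19445 left the count under DESeq2. It also left it without replicate 1, 2 or 3 of 6 h or replicate 2, 3 or 4 of 72 h. The median of the region was -0.14, against 0.00 over all tested loops. The comparison of 72 h against 6 h shares its 72 h libraries with the one that chose the region. That of 6 h against 0 h shares the 0 h libraries with it, so neither is independent of the choice. For 72 h against 0 h, the comparison that chose the region, the count is given only as a description from which nothing is read: 7 of the 19 loops, 2 upward and 5 downward, where the genome had 33.6% (16.7% upward and 16.9% downward). Of the calls at 72 h against 6 h, 2 remained under DESeq2, and the count was 3 without replicate 2 of 6 h, 4 without replicate 3 of 6 h and 5 without replicate 2 of 72 h. Over all tested loops the calls in this comparison were 4945 in the main fit and 1979 under DESeq2. Without those libraries, in the same order, they were 4274, 4150 and 3876. At 6 h against 0 h, replicates 1 and 2 alone gave 1 call, and so did replicates 3 and 4 alone. Over all tested loops these pairs gave 568 and 231 calls, against 1546 in the main fit. The map of loops shows where these members lie.

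**Figure D1:**
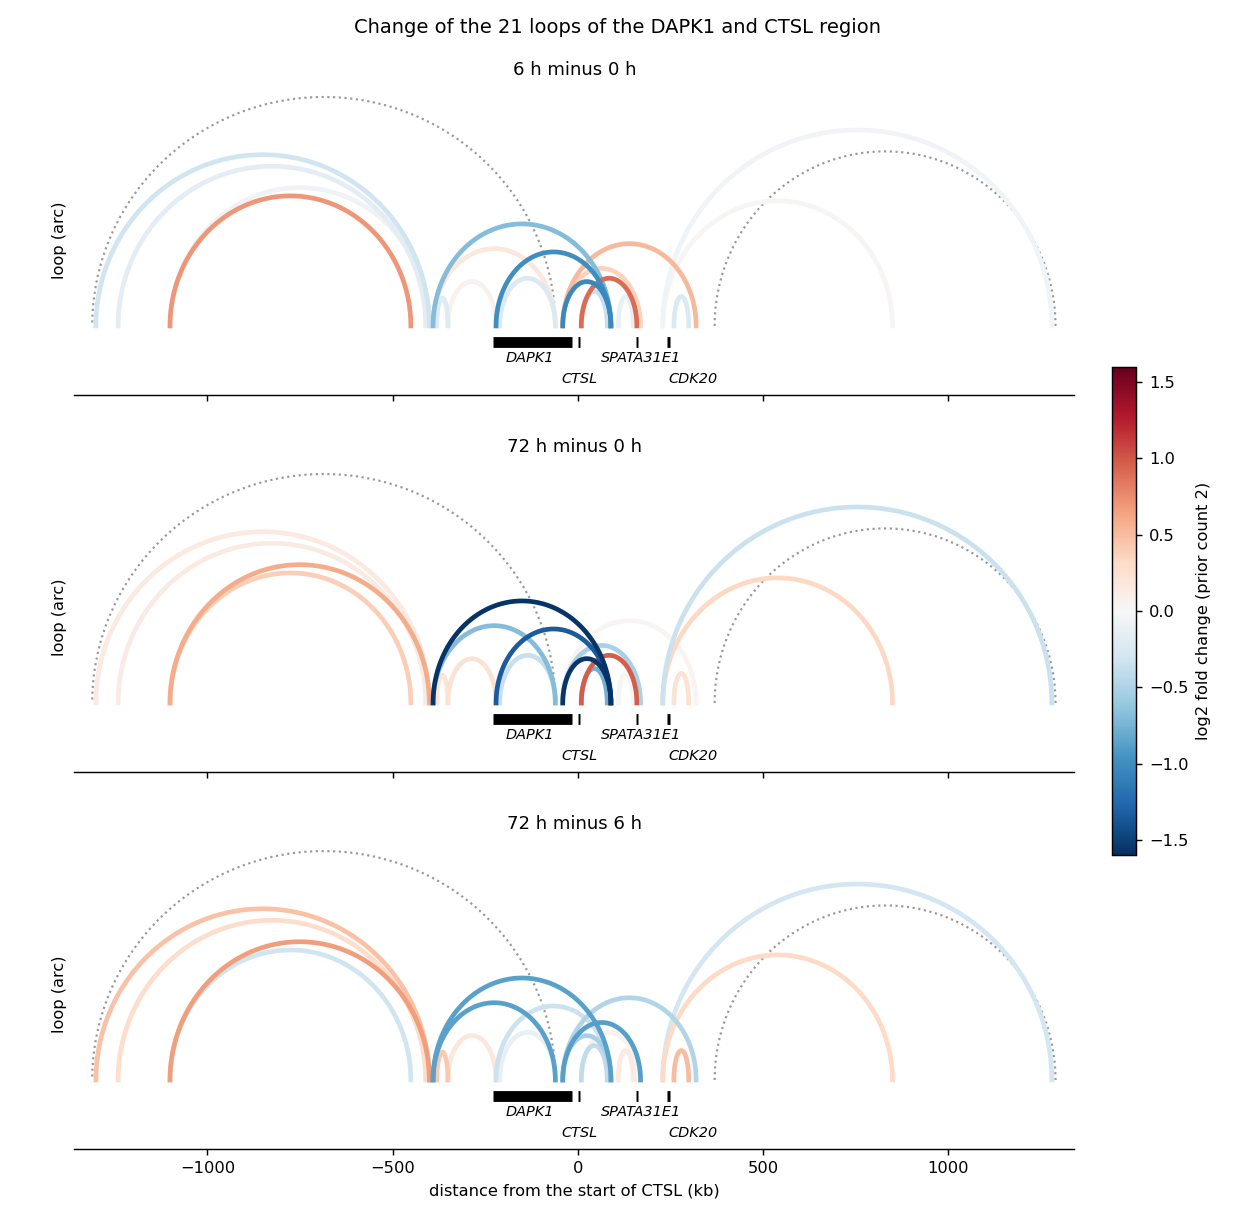
Each arc joins the anchors of 1 of the 21 loops, on a horizontal axis of distance from the start of CTSL in kb, and its colour gives the log2 fold change of the comparison named above the panel. Dotted arcs are the 2 loops that were not tested, and black bars are genes. The 3 arcs that meet at the ELF2P3 anchor are blue in every panel, with log2 fold changes between -1.56 and -0.35, and the arc from CTSL to SPATA31E1 is red at 6 h (0.91) and at 72 h (0.97) against 0 h.

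The loops that end at the ELF2P3 anchor (87810001 to 87820000) had the 3 largest falls of the region against 0 h, at 6 h as well as at 72 h. From 6 h to 72 h the lowest value belonged to loop19451, which ends elsewhere. Loop19450 spans 130 kb from the 3′ part of the DAPK1 body (87680001 to 87690000) to this anchor, and CTSL lies inside it. Its normalized counts were 97.0, 104, 94.1 and 88.7 at 0 h, 50.0, 44.9, 32.5 and 55.5 at 6 h, and 34.5, 31.1, 31.2 and 28.6 at 72 h. It was the strongest loop of the region at 0 h, every 6 h library lay below every 0 h library, and the 72 h libraries lay below the 0 h ones as well. The highest 72 h library lay above the lowest 6 h library. Its mean was 96.1 ± 6.6 (SD, n = 4) at 0 h, 45.7 ± 9.8 (SD, n = 4) at 6 h and 31.8 ± 2.4 (SD, n = 3) at 72 h. The fall at 6 h was -1.03 (SE 0.13, edgeR adjusted p = 3.18e-09), which was the rank 8 among the falls of all tested loops. It was of like size within replicates 1 and 2 (-1.07, edgeR adjusted p = 1.20e-05). Within replicates 3 and 4, which were close to 1 sample at each time, the value was -0.99. Loop19450 may itself have led to the choice of the region, which used the same 0 h libraries. These p-values are therefore not independent of the choice.

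A further fall of loop19450 from 6 h to 72 h was smaller, at -0.53 (SE 0.17, edgeR adjusted p = 0.0129). This later call was lost without replicate 4 of 6 h (edgeR adjusted p = 0.0693), under DESeq2 (adjusted p = 0.0586) and within either pair of replicates. The log2 fold change at 72 h against 0 h was -1.56. The 10 single technical columns per time held 82.9 to 120 (0 h), 30.1 to 56.7 (6 h) and 21.2 to 46.8 (72 h), so that no single column of a later time reached the 0 h range. Among 1499 tested loops whose length was within 10 kb of its own, loop19450 stood above 83.0% at 0 h, above 39.4% at 6 h and above 14.3% at 72 h.

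Loop19448 spans 310 kb from the anchor just inside the 5′ end of DAPK1 (87500001 to 87510000) to the ELF2P3 anchor, and so encloses most of DAPK1 and all of CTSL. Its normalized counts were 23.2, 18.0, 25.1 and 23.9 at 0 h, 5.88, 14.0, 11.3 and 9.65 at 6 h, and 7.96, 9.04, 9.36 and 4.46 at 72 h. All 0 h libraries lay above all later libraries, while the 6 h and 72 h libraries overlapped. The mean was 22.5 ± 3.1 (SD, n = 4), 10.2 ± 3.4 (SD, n = 4) and 7.97 ± 1.1 (SD, n = 3). The loop fell at 6 h by 0.998 on the log2 scale (SE 0.25, edgeR adjusted p = 0.0045), and from 6 h to 72 h its value was -0.35 (SE 0.29, edgeR adjusted p = 0.419). Against 0 h, the 72 h value was -1.34. The call at 6 h was lost under DESeq2 (-1.14, adjusted p = 0.0723) and within replicates 1 and 2 (-0.95, edgeR adjusted p = 0.0964) or 3 and 4 (-1.08, edgeR adjusted p = 0.114).

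Loop19445 had the largest fall of the region at 72 h against 0 h. It spans 480 kb from an anchor upstream of DAPK1 (87330001 to 87340000) to the ELF2P3 anchor and thus encloses both DAPK1 and CTSL. Its raw counts were 21, 26, 11 and 13 contacts at 0 h, 9, 10, 11 and 6 at 6 h, and 9, 5, 1 and 4 at 72 h. Its normalized counts were 15.2, 24.7, 13.8 and 14.8 at 0 h, 8.82, 9.35, 15.6 and 7.24 at 6 h, and 7.96, 5.02, 1.04 and 3.57 at 72 h. The 72 h libraries lay below all 0 h libraries, and the 6 h libraries overlapped with both. The mean was 17.1 ± 5.1 (SD, n = 4), 10.2 ± 3.7 (SD, n = 4) and 5.1 ± 2.8 (SD, n = 3). The log2 fold change was -0.69 (SE 0.27) at 6 h against 0 h, -0.87 (SE 0.32) at 72 h against 6 h and -1.56 (SE 0.29) at 72 h against 0 h. With edgeR's smaller default prior count the last value was -1.91, since few contacts lie behind it.

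**Figure D2:**
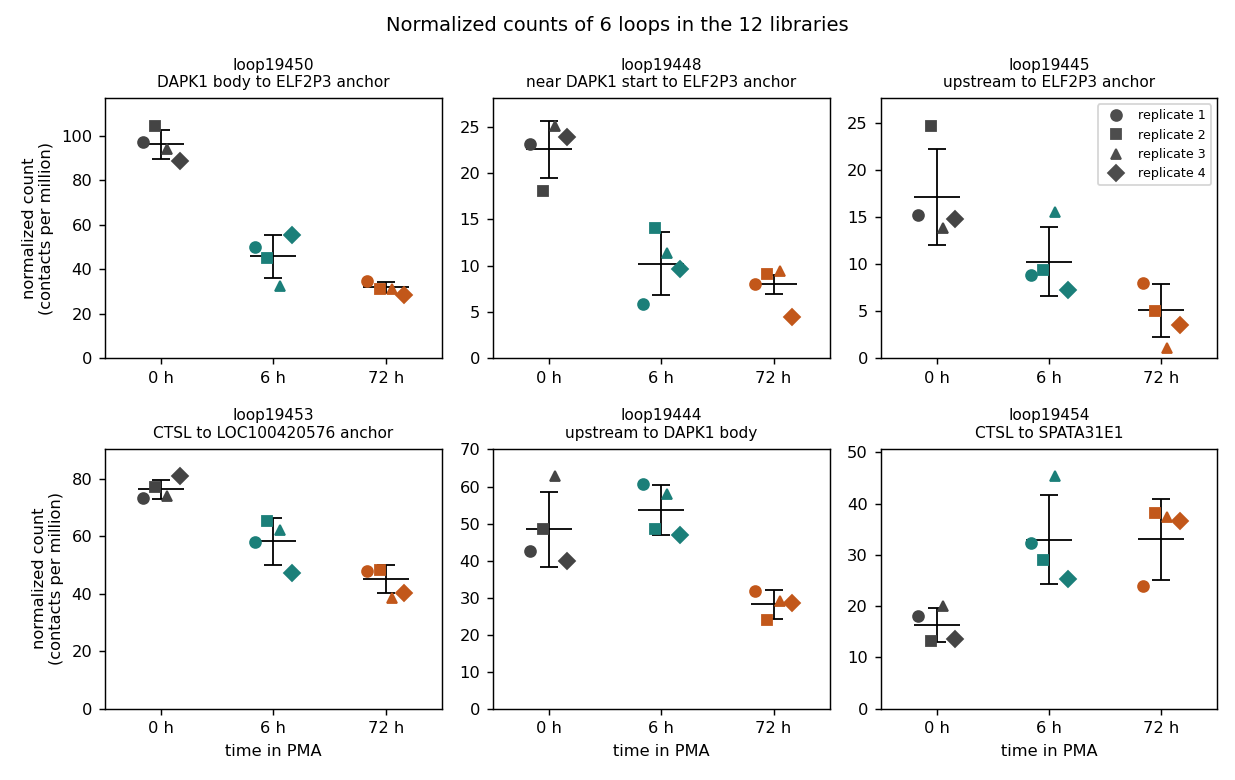
Normalized counts (contacts per 1000000) of 6 loops, with 1 panel per loop, against the time in PMA. Symbols are biological replicates, long bars the mean and whiskers the SD, with 72 h replicates 3 and 4 counted as 1 sample. The 0 h libraries of loop19450 sit between 88.7 and 104, above all later libraries, and those of loop19454 sit between 13.3 and 20.1, below all later libraries.

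The 3 loops at the ELF2P3 anchor were also added up. Their summed normalized count was 135.4, 147.2, 133.0 and 127.3 at 0 h, 64.7, 68.2, 59.4 and 72.4 at 6 h, and 50.4, 45.2, 41.6 and 36.6 at 72 h. The 3 times did not overlap in this sum. The mean was 136 ± 8.3 (SD, n = 4), 66.2 ± 5.5 (SD, n = 4) and 44.9 ± 5.7 (SD, n = 3), that is 48.8% of the 0 h mean at 6 h and 33.1% at 72 h. The other 18 loops of the region summed to 560 ± 20, 542 ± 19 and 557 ± 33 (SD, n = 4, 4 and 3), which was 96.7% and 99.3% of the 0 h mean. Since the sum holds loop19445 and was chosen with these values known, it carries no test.

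Loop19453 spans 70 kb from the CTSL anchor (87730001 to 87740000) to the bin just before the ELF2P3 anchor (87800001 to 87810000), within LOC100420576. Its values were 73.1, 76.9, 74.0 and 80.7 at 0 h, 57.8, 65.4, 62.3 and 47.1 at 6 h, and 47.8, 48.2, 38.5 and 40.2 at 72 h. The 0 h libraries lay above all others, and only the lowest 6 h library reached the 72 h range. The mean was 76.2 ± 3.4 (SD, n = 4), 58.1 ± 8.0 (SD, n = 4) and 45.1 ± 5.0 (SD, n = 3). At 6 h the value of -0.37 (SE 0.13) missed the threshold (edgeR adjusted p = 0.0739), and from 6 h to 72 h the loop fell by 0.40 on the log2 scale (log2 fold change -0.40, SE 0.15, edgeR adjusted p = 0.0374). The later call was lost under DESeq2 (adjusted p = 0.126), within either pair of replicates and without replicate 1, 2 or 3 of 6 h or replicate 3 or 4 of 72 h (edgeR adjusted p between 0.0661 and 0.139).

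Loop19454 starts at the same CTSL anchor and passes over the ELF2P3 anchor to the SPATA31E1 anchor, 150 kb away. The libraries gave it normalized counts of 18.1, 13.3, 20.1 and 13.6 at 0 h, 32.4, 29.0, 45.3 and 25.3 at 6 h, and 23.9, 38.1, 37.4 and 36.6 at 72 h. Every later library was above every 0 h library, and the 6 h and 72 h libraries overlapped. The mean was 16.3 ± 3.3 (SD, n = 4), 33.0 ± 8.7 (SD, n = 4) and 33.0 ± 7.9 (SD, n = 3). The loop rose at 6 h by 0.91 on the log2 scale (SE 0.21, edgeR adjusted p = 0.00177), and from 6 h to 72 h its value was 0.06 (SE 0.18, edgeR adjusted p = 0.848). Against 0 h, the 72 h value was 0.97 (SE 0.20).

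The rise of loop19454 at 6 h was called under DESeq2 (1.00, adjusted p = 0.0305) and without any 1 library (edgeR adjusted p between 0.00138 and 0.0212). Within replicates 1 and 2 it was 0.85 (edgeR adjusted p = 0.0602) and within replicates 3 and 4 it was 0.95 (edgeR adjusted p = 0.089), so that the call was lost in either pair alone. Among 1517 tested loops of like length it stood above 3.76% at 0 h, 27.1% at 6 h and 25.8% at 72 h, so it stayed among the weaker loops of its length.

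Loop19453 and loop19454 leave the same CTSL anchor in the same direction, so the share of the longer one was taken. Loop19454 held 19.8%, 14.7%, 21.3% and 14.5% of their joint contacts at 0 h, 35.9%, 30.7%, 42.1% and 35.0% at 6 h, and 33.3%, 44.2%, 49.3% and 47.7% at 72 h. The 0 h libraries lay apart from all later ones, and the 6 h and 72 h libraries overlapped. The mean share was 17.6% ± 3.5 (SD, n = 4), 35.9% ± 4.7 (SD, n = 4) and 42.0% ± 7.8 (SD, n = 3). In the same way loop19451 held 19.9% ± 2.6, 39.5% ± 12 and 31.7% ± 6.9 (SD, n = 4, 4 and 3) of the contacts of loop19450 and loop19451, which both leave the 3′ part of DAPK1. Both shares are descriptions with no test, and a share can move through either of its loops.

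**Figure D3:**
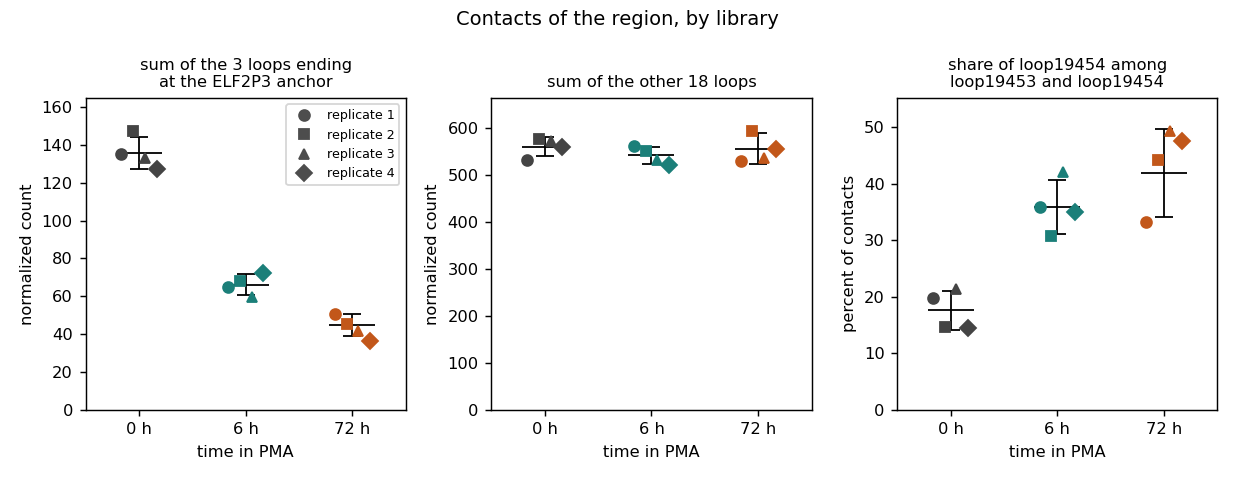
Sum of the normalized counts of the 3 loops at the ELF2P3 anchor (left), of the other 18 loops (middle) and share of loop19454 among loop19453 and loop19454 in percent (right), by time in PMA and library, with the mean and SD. The left sum goes from 136 to 66.2 and 44.9, while the means of the middle one lie between 542 and 560.

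The loops inside and around the body of DAPK1 followed other courses. Loop19444 spans 330 kb from the upstream anchor of loop19445 to the body of DAPK1 (87660001 to 87670000). In normalized counts it held 42.7, 48.4, 62.7 and 39.8 at 0 h, 60.8, 48.6, 58.0 and 47.1 at 6 h, and 31.8, 24.1, 29.1 and 28.6 at 72 h. The 0 h and 6 h libraries overlapped, and all 72 h libraries lay below both. The mean was 48.4 ± 10 (SD, n = 4), 53.6 ± 6.8 (SD, n = 4) and 28.3 ± 3.9 (SD, n = 3). At 6 h the value was 0.16 (SE 0.15, edgeR adjusted p = 0.577). From 6 h to 72 h the loop fell (-0.86, SE 0.16, edgeR adjusted p = 2.78e-05). This call was kept under DESeq2 (adjusted p = 0.00145) and within replicates 1 and 2 (-0.91). Within replicates 3 and 4, counted as 1 sample at 72 h, the value was -0.80. Against 0 h, the 72 h value was -0.70.

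Loop19451 spans 210 kb from the same DAPK1 anchor as loop19450 to the bin after the SPATA31E1 anchor (87890001 to 87900000). Its values were 20.3, 26.6, 28.9 and 20.5 at 0 h, 28.4, 45.8, 29.7 and 16.9 at 6 h, and 16.8, 10.0, 19.8 and 17.0 at 72 h. Replicate 2 of 6 h was the highest of all, and the times overlapped in part. The mean was 24.0 ± 4.3 (SD, n = 4), 30.2 ± 12 (SD, n = 4) and 15.1 ± 4.4 (SD, n = 3). At 6 h the value was 0.36 (SE 0.19, edgeR adjusted p = 0.277), and from 6 h to 72 h the loop fell (-0.88, SE 0.21, edgeR adjusted p = 9.88e-04). Without replicate 2 of 6 h the later value was -0.59 (edgeR adjusted p = 0.0639), and within replicates 3 and 4 it was -0.29.

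Loop19447 joins an anchor upstream of DAPK1 (87370001 to 87380000) to the anchor near the starts of DAPK1, 130 kb away. Its normalized counts were 32.6, 35.1, 27.6 and 45.5 at 0 h, 38.2, 41.1, 33.96 and 31.4 at 6 h, and 46.9, 48.2, 37.4 and 33.9 at 72 h. The 3 times overlapped. Its log2 fold change was 0.06 (SE 0.17, edgeR adjusted p = 0.889) at 6 h and 0.17 (SE 0.16, edgeR adjusted p = 0.48) from 6 h to 72 h, and neither passed the test. Loop19449, which lies wholly inside DAPK1 (87510001 to 87670000), had means of 39.6 ± 4.4 (SD, n = 4), 33.0 ± 4.3 (SD, n = 4) and 30.2 ± 3.8 (SD, n = 3). Its values of -0.24 (edgeR adjusted p = 0.446) and -0.14 (edgeR adjusted p = 0.626) did not pass either.

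Upstream of DAPK1, 5 loops reach into the region from anchors before its lower edge, and they summed to 71.5 ± 3.0 (SD, n = 4), 67.6 ± 3.3 (SD, n = 4) and 85.9 ± 6.4 (SD, n = 3). Loop19442 (86620001 to 87330000, 700 kb between anchors) had normalized counts of 15.2, 12.3, 15.1 and 9.10 at 0 h, 18.6, 9.35, 9.91 and 10.9 at 6 h, and 18.6, 25.1, 20.8 and 19.6 at 72 h. Replicate 1 of 6 h reached the lowest 72 h library and the other 6 h libraries lay below them all. Its value at 6 h was -0.07 (SE 0.26, edgeR adjusted p = 0.918), and from 6 h to 72 h it rose by 0.67 on the log2 scale (SE 0.24, edgeR adjusted p = 0.0308). The rise was lost under DESeq2 (adjusted p = 0.133), within either pair of replicates and without replicate 2, 3 or 4 of 6 h or replicate 2 of 72 h (edgeR adjusted p between 0.0749 and 0.121).

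Loop19438 ends at the same anchor as loop19442 and starts at 86420001, 900 kb away. Its normalized counts were 23.9, 28.5, 25.1 and 25.0 at 0 h, 18.6, 18.7, 21.2 and 22.9 at 6 h, and 28.3, 31.1, 29.1 and 25.9 at 72 h. The 6 h libraries lay below those of both other times. The differences of -0.32 (SE 0.20, edgeR adjusted p = 0.392) at 6 h and 0.46 (SE 0.20, edgeR adjusted p = 0.0814) from 6 h to 72 h did not pass the threshold.

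The 2 remaining loops that rose after 6 h were short. Loop19446 (30 kb, from 87340001) had normalized counts of 65.2, 82.6, 56.5 and 63.7 at 0 h, 59.8, 53.3, 45.3 and 71.2 at 6 h, and 61.0, 95.4, 83.2 and 75.0 at 72 h, and the times overlapped. It rose from 6 h to 72 h by 0.43 on the log2 scale (SE 0.14, edgeR adjusted p = 0.0161), with an adjusted p of 0.0925 under DESeq2. Without replicate 2 or 3 of 6 h or replicate 2 of 72 h the call was lost (edgeR adjusted p between 0.0544 and 0.12). Loop19458 (40 kb, from 87980001, beside CDK20) had normalized counts of 52.1, 54.1, 45.2 and 60.3 at 0 h, 47.1, 44.9, 41.0 and 43.4 at 6 h, and 59.3, 65.3, 59.3 and 68.7 at 72 h. All its 72 h libraries lay above all its 6 h libraries. It rose from 6 h to 72 h by 0.49 (SE 0.14, edgeR adjusted p = 0.00833), with an adjusted p of 0.0566 under DESeq2. Within either pair of replicates these 2 rises were lost.

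**Figure D4:**
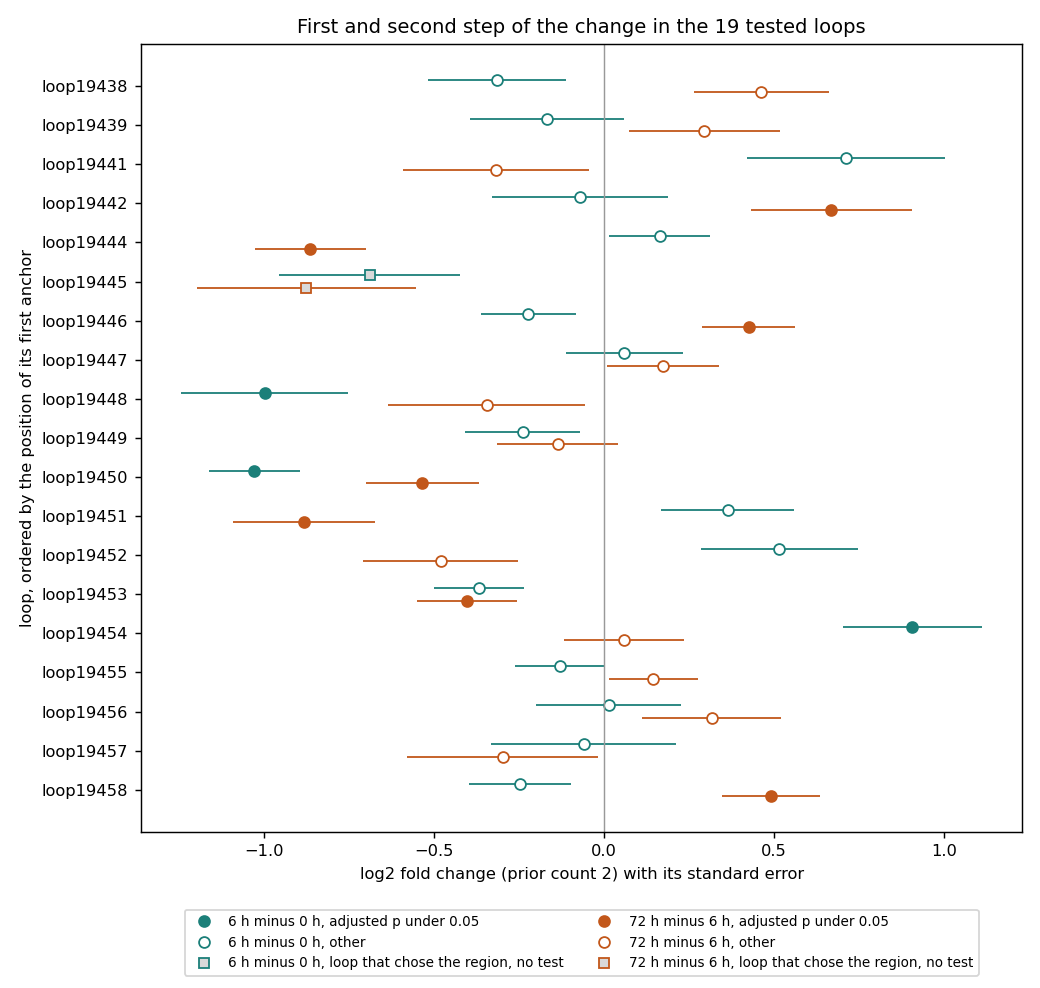
Log2 fold change with its standard error for the 19 tested loops, from 0 h to 6 h (green) and from 6 h to 72 h (orange), ordered by the position of the first anchor. Filled circles passed an adjusted p of 0.05, open ones did not, and squares are loop19445, which has no test. The legend calls it the loop that chose the region, though the choice names no loop. Loop19448 and loop19454 passed in the first step alone and loop19450 in both. In the second step alone, loop19444, loop19451 and loop19453 passed as falls and loop19442, loop19446 and loop19458 as rises. The 2 steps share the 6 h libraries, so a low or high 6 h library pushes them in opposite directions.

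The other 9 loops of the region include the 2 that were not tested, loop19437 and loop19459. Their mean normalized counts lay between 5.44 and 77.7. For the 7 that were tested, log2 fold changes ranged from -0.24 to 0.71 at 6 h against 0 h, from -0.37 to 0.40 at 72 h against 0 h and from -0.48 to 0.32 at 72 h against 6 h. Every loop that edgeR called at 6 h against 0 h or 72 h against 6 h is given in full. None of the 7 could therefore be such a call. DESeq2 called 0 of the 7 in either comparison. By edgeR 2 of the 7 had an unadjusted p under 0.05 at 6 h against 0 h, and 1 at 72 h against 6 h. The share over all tested loops was not taken for this cut, and nothing is read from these counts. Loop19452, which runs from the DAPK1 anchor of loop19450 to 88040001, had 6 h libraries between 18.4 and 22.9. These lay above its 0 h libraries (10.0 to 15.9) and its 72 h libraries (11.5 to 17.9), and the log2 fold changes were 0.52 (edgeR adjusted p = 0.173) and then -0.48 (edgeR adjusted p = 0.119). Loop19455, between the ELF2P3 and SPATA31E1 anchors, had the highest mean count of the region over all libraries and values of -0.13 and 0.15 that did not pass.

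The libraries of 6 h and 0 h did not overlap for 7 of the 19 tested loops, where this held for 10.7% of loops over the genome. For 72 h against 6 h it held for 6 loops, against 19.8% over the genome. For 72 h against 0 h it held for 8 loops, against 28.3%, and nothing is read from the last count, which the choice of the region used.

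At the edges of the window, the members nearest to its borders were weak. Loop19441, just inside the lower edge, had a mean of 7.01 at 0 h and a log2 fold change of 0.40 at 72 h against 0 h, and loop19440, just outside, had 8.40 and 0.76. Loop19459, just inside the upper edge, had a mean of 6.04 at 0 h and was not tested, while loop19460, just outside, had 29.6 and a log2 fold change of 0.17. Within 1 Mb on both sides of the region lay 16 further loops, of which 14 were tested. At 6 h against 0 h, 1 of them changed, upward, and their median was 0.28. At 72 h against 6 h, 3 changed, 2 upward and 1 downward, with a median of 0.19. On the rest of chromosome 9, 53 of 672 tested loops changed at 6 h (7.89%) and 132 from 6 h to 72 h (19.6%). Whether the region differs from its flanks was not tested.

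Loops elsewhere with a course like that of loop19445 were ranked by Pearson's r of log2 normalized counts over the 12 libraries, as a description. The most alike was loop28360 on chromosome 16 (r = 0.96), whose anchors hold ends of PGAP6, PRR35, NHLRC4 and PIGQ and whose mean went from 39.3 through 33.9 to 29.4 over the 3 times. Loop2135 on chromosome 1, at S100A8, a gene for a calcium-binding protein of myeloid cells, had r = 0.94, with means of 92.3, 76.9 and 71.9. Loop11775 on chromosome 5 also had r = 0.94, with means of 23.4, 21.1 and 14.2. All 3 had smaller changes than loop19445. The highest values for loop19455 were r = 0.89 (loop4044, chromosome 2), 0.87 (loop8623, chromosome 4) and 0.84 (loop14932, chromosome 6). The points share libraries and depth, and the best of 24132 loops was picked in each case.

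Relatives of the genes of the region were looked up in the whole table, namely 21 genes for other cathepsins, for cystatins, which inhibit cathepsins, and for other DAPK family kinases. Of these, 9 had an end in a loop anchor, which gave 15 loops, 10 of them tested. At 6 h against 0 h 3 of the 10 changed, all downward, where 4.07% fell over the genome, and their median was 0.00. They were loop2775 at CTSE, an aspartic protease (-0.51, SE 0.10, edgeR adjusted p = 2.6e-04), loop32272 at CSTB, a cystatin (-0.43, SE 0.10, edgeR adjusted p = 0.00398), and loop16041 at STK17A, a DAPK family kinase (-0.64, SE 0.13, edgeR adjusted p = 3.97e-04). From 6 h to 72 h 1 of the 10 changed, where 20.5% changed over the genome. It was loop31758 at CTSA (-0.32, SE 0.12, edgeR adjusted p = 0.0332), and the median was -0.08. The count was 0 under DESeq2 and without replicate 2 or 3 of 6 h or replicate 1 or 2 of 72 h. At 72 h against 0 h 7 passed the threshold, where 33.6% did over the genome, with a median of -0.21. Of these, 2 were upward, both at CTSC, and 5 downward, and within replicates 3 and 4 alone 3 passed, all downward. Their list was drawn up with earlier results of these data known.

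In the authors' deposited table, 18 of the 21 loops had the class static, loop19450 and loop19453 the class lost, and loop19454 the class gained. The authors' deposited table put loop19450 at -0.97 after 6 h and -1.53 after 72 h on the log2 scale. For loop19454 the authors' deposited table gave 0.78 and 0.92. The authors' deposited table had no fold change for 6 of the loops, among them loop19445 and loop19448, which it classed as static. Its adjusted p was the same in both of its columns for all 33914 loops. It is thus not tied to 1 of the times, and it is not given here.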

How the data were processed

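Per the file headers, the deposited table lists 33914 loops, with a raw count of contacts for each technical replicate, and its positions start from 0. They also deposited log2 fold changes, adjusted p-values and a class, whose making is not given in the sources used here. Juicer 1.5.6, DESeq2, DESeq and hg38 are named in the submitters' processing notes, with no role given. Counts hold the local background of a pixel as well as the loop. Technical columns were summed into 12 libraries. Loops were kept by filterByExpr (minimum count 10, minimum total 15) and fitted over the whole table with edgeR 4.0.16 in R 4.3.3 in 1 model of 3 times, with no covariate. At 1000000 contacts a library, low loops rest on few contacts: loop19445 had 1 to 26. The fit was tested on simulated counts.

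The region, its loops and the lists were chosen with earlier results of these data known. Loops given in full were the loop with the largest fall at 72 h, loops that share or adjoin its anchors, loops with an end of DAPK1 or CTSL within 10 kb of an anchor, and loops called at 6 h against 0 h or 72 h against 6 h. Alternatives were no filter, other scalings, DESeq2 1.42.0, a length correction (loess, span 0.3), a replicate block, a batch term, either pair of replicates alone, each library left out, replicates 3 and 4 of 72 h summed, and, chosen after seeing the data, replicates 3 and 4 summed at every time and edgeR's smaller default prior count. Gene positions and sequences came from RefSeq tables of GRCh38.p14, and sequences of the anchors were not used here.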

Additional observations from a re-analysis of the deposited data

Results flagged for a closer look

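Each of the 12 loops given in full was examined for a library far from the others of its time, at 0 h and 6 h, which made 24 groups of 4 libraries. 2 groups stood out, where chance gives 1.2. Replicate 1 of 6 h had a normalized count of 18.6 for loop19442, while the other 6 h libraries lay between 9.35 and 10.9. Replicate 2 of 0 h had 24.7 for loop19445, while the other 0 h libraries lay between 13.8 and 15.2.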

How the results depend on the processing

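No value that passed the threshold in the reported or the alternative setting changed its sign. Among 864 values of single loops under alternatives, 11 had the other sign, for 6 results that passed in neither setting, such as loop19451 at 6 h against 0 h (0.36, and -0.09 within replicates 3 and 4) and loop19438 at 72 h against 0 h (0.15, and -0.12 with the length correction). The count of region loops called at 6 h against 0 h was 3 and became 1 within replicates 1 and 2 and 1 within replicates 3 and 4, which hold fewer libraries, and stayed at 3 without any 1 library. At 72 h against 6 h it was 8, with loop19445 counted. It became 2 under DESeq2, 2 within replicates 1 and 2 and 2 within replicates 3 and 4. Leaving out 1 library gave 3 to 8 there, with 3 without replicate 2 of 6 h, 4 without replicate 3 of 6 h and 5 without replicate 2 of 72 h. Of the loops at related genes, the count at 6 h was 3 and became 1 within replicates 1 and 2, the count at 72 h against 0 h was 7 and became 3 within replicates 3 and 4, and the count at 72 h against 6 h was 1 and became 0 under DESeq2 and 0 to 1 with 1 library left out. Over all tested loops DESeq2 called 340, 4977 and 1979 where edgeR called 1546, 8105 and 4945, in the order 6 h against 0 h, 72 h against 0 h and 72 h against 6 h. In the same order replicates 1 and 2 alone called 568, 4950 and 2430, and replicates 3 and 4 alone 231, 3951 and 1663. The cause of these differences was not tested.

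Deviations of same-numbered replicates of different times had correlations of 0.0146 to 0.124, and those of other-numbered ones -0.0738 to 0.0441. These are small, and whether the numbers pair the libraries was not tested. Over all tested loops a replicate block called 1938, 8560 and 5472, where the fit without it called 1546, 8105 and 4945. In the region the block gave 3, 8 and 8 calls, and at related genes 3, 7 and 1. For the loops given in full it changed no call at 6 h against 0 h or at 72 h against 6 h. Depth limits the weak loops: loop19445 and loop19448 rest on few contacts a library.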
